A study of Mus musculus with 4 samples.

Results

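Efferocytosis, the engulfment of dying cells by phagocytes, was described here in mouse peritoneal macrophages through 10 genes for its receptors, bridging molecules and engulfment adaptors. The genes were chosen by symbol, as Mertk, Axl, Gas6, Pros1, Mfge8, Itgav, Itgb5, Elmo1, Dock1 and Gulp1, and all 10 were found among the 13834 genes of the table. An apoptotic cell exposes phosphatidylserine on its surface, which macrophages reach either directly or through a soluble bridge. Gas6 links it to the receptor tyrosine kinases Mertk and Axl of the TAM family, and protein S (Pros1) links it to Mertk. Mfge8 links phosphatidylserine to integrins that contain the alpha V chain (Itgav) paired with beta 5 (Itgb5). Elmo1 and Dock1 then form an exchange factor that activates the GTPase Rac for closure of the phagocytic cup, and Gulp1 is an adaptor that binds the tails of engulfment receptors.

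RNA was sequenced from 2 Dnmt1fl/fl samples, the floxed controls that the labels call wt, and 2 Dnmt1KO samples, which the labels call a myeloid-specific Dnmt1 knockout. The knockout carries the same floxed Dnmt1 gene together with Cre recombinase driven by the LysM promoter, which acts in myeloid cells at large and not in macrophages alone. Per the study's methods, the mice were 10 weeks old and received thioglycolate broth into the abdomen 3 days before lavage, so the cells were elicited rather than resting, and the labels give no treatment beyond isolation. Whether the controls carried Cre, and how many mice stand behind each sample, is not given in the sources used here, so p-values measure only the spread between these samples.

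Total counts ran from 20228071 to 24198943 per sample, and levels are given as CPM, counts scaled to a fixed library total after TMM adjustment between samples. Dnmt1 was at 86.6 and 67.0 CPM in Dnmt1fl/fl and at 37.0 and 42.7 CPM in Dnmt1KO replicates 1 and 2, so both Dnmt1KO samples were below both controls. Of 9 general macrophage markers all were listed, and without Lyz2, whose locus carries Cre in this line, they summed to 6560 to 6700 CPM in Dnmt1fl/fl and 6470 to 7210 CPM in Dnmt1KO. The Dnmt1KO samples differed from each other in other cell types' markers. The 8 of 10 neutrophil markers listed (Camp and Ngp were not listed) summed to 763 CPM in Dnmt1KO replicate 1 against 194 in replicate 2 and 195 to 262 in Dnmt1fl/fl, and all 6 fibroblast markers to 133 against 30.8 and 46.1 to 67.4 CPM. The 6 B cell markers went the other way, with 130 CPM in Dnmt1KO replicate 1, 525 in replicate 2 and 318 to 483 in Dnmt1fl/fl, as did the 6 markers of large resident peritoneal macrophages, at 135, 328 and 319 to 365 CPM. The 6 markers of recruited monocytes and small macrophages summed to 555 CPM in Dnmt1KO replicate 1, 712 in replicate 2 and 624 to 846 in Dnmt1fl/fl. Most of this sum was Ccr2, which like Cd226 was lowest in Dnmt1KO replicate 1, at 376 CPM. Ly6c2, Itgax and Ear2 were instead highest in that sample, at 23.3, 92.5 and 32.2 CPM, and Plac8 lay between the controls. The list thus gave no single direction. Markers of T cells, mast cells, eosinophils (3 of 5 listed), dendritic cells and mesothelial cells each summed to at most 50.5 CPM in any sample. In bulk RNA, fewer cells of a type and less RNA per cell cannot be told apart.

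To ask whether Dnmt1 deficiency altered the expression of these genes, edgeR's quasi-likelihood test was run across the 12542 genes that passed a filter on low counts, as 9 of the 10 members did. Mfge8 was the member furthest higher in Dnmt1KO and Axl the furthest lower, and Itgav was also lower in both Dnmt1KO samples. The count of members with an adjusted p under 0.05 was 0 in edgeR, DESeq2 and limma-voom, and among all genes it was 0 in edgeR, or 0%. Dnmt1, the targeted gene, was thus not called either, at a log2 fold change of -0.95 (SE 0.24, unadjusted p = 0.00839, edgeR). An unadjusted p under 0.05 was found in edgeR for 1 member, Mfge8, and for 0.279% of all genes, 0.112% higher and 0.167% lower in Dnmt1KO. The genotypes did not overlap in 3 of the 9, namely Mfge8 (higher), Axl and Itgav (both lower in Dnmt1KO), and among all genes this share was 16.7%, with 8.14% higher and 8.56% lower. The median log2 fold change of the 9 members was -0.10 and that of all genes 0.0046. For any value taken alone, the smallest two-sided p that an exact permutation of 2 against 2 samples allows is 0.333.

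**Figure D1:**
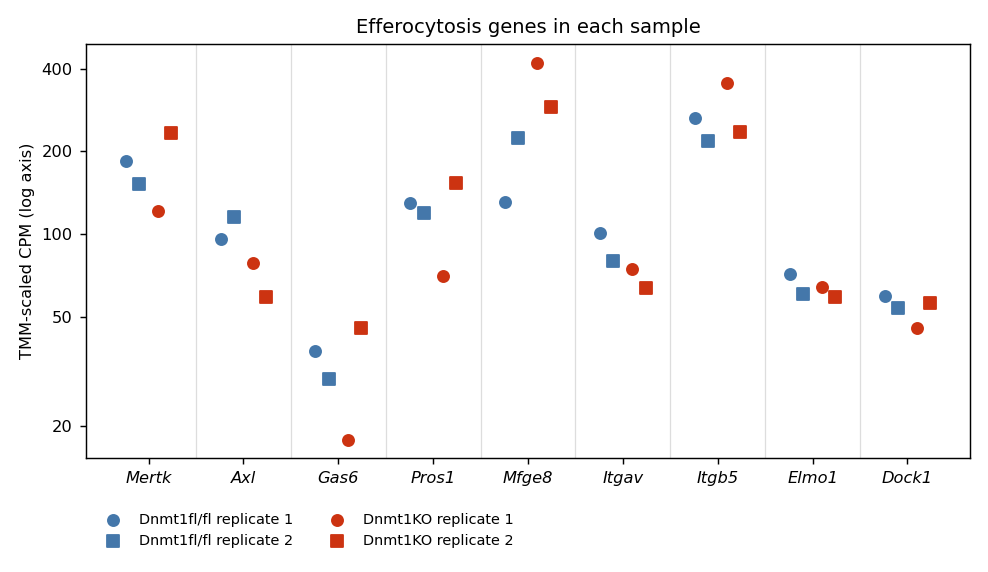
TMM-scaled CPM (log axis) of the 9 members that passed the filter, with 1 point per sample, blue for Dnmt1fl/fl and red for Dnmt1KO, circles for replicate 1 and squares for replicate 2. The red points lie apart from the blue ones for Mfge8, Axl and Itgav, and they enclose the blue ones for Mertk, Gas6 and Pros1.

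Of the TAM receptors, Mertk, the main one for apoptotic cells on resident macrophages, was at 184 and 152 CPM in Dnmt1fl/fl replicates 1 and 2, at 121 CPM in Dnmt1KO replicate 1 and at 234 CPM in Dnmt1KO replicate 2. The Dnmt1KO samples were thus the lowest and the highest of the 4, and the control samples lay between them. The means were 168 ± 22.4 (SD, n = 2) and 178 ± 79.9 CPM (SD, n = 2), a log2 fold change of 0.08 (SE 0.36, adjusted p = 1.00, edgeR). Mertk was the only member with counts that were not whole numbers, and how these arose is not stated. No exon of another annotated gene overlaps its exons. Axl, the TAM receptor that inflammatory signals induce, was at 95.6 and 115 CPM in Dnmt1fl/fl and at 78.1 and 58.8 CPM in Dnmt1KO replicates 1 and 2. Both Dnmt1KO samples were below both controls. The means were 106 ± 14.0 (SD, n = 2) and 68.5 ± 13.6 CPM (SD, n = 2), which is 1.54-fold lower in Dnmt1KO, with a log2 fold change of -0.63 (SE 0.25, unadjusted p = 0.0518, adjusted p = 1.00, edgeR). The third TAM receptor, Tyro3, was not among the genes listed.

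Both TAM ligands followed the pattern of Mertk. Gas6, which activates all TAM receptors, was at 37.4 and 29.7 CPM in Dnmt1fl/fl, 17.8 CPM in Dnmt1KO replicate 1 and 45.6 CPM in Dnmt1KO replicate 2. Pros1, the plasma anticoagulant that serves as a ligand of Mertk, was at 130 and 119 CPM in Dnmt1fl/fl, 70.5 CPM in Dnmt1KO replicate 1 and 154 CPM in Dnmt1KO replicate 2. For both ligands Dnmt1KO replicate 1 was the lowest and replicate 2 the highest sample. The log2 fold changes between genotypes were -0.08 for Gas6 (SE 0.45) and -0.15 for Pros1 (SE 0.39), and the adjusted p in edgeR was 1.00 for either ligand.

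Between the Dnmt1KO samples, replicate 2 exceeded replicate 1 by 2.57-fold for Gas6, 2.18-fold for Pros1 and 1.93-fold for Mertk. On the log2 scale the Dnmt1KO replicates were at least 1 apart in 2 of the 9 members and in 18.9% of all genes. Dnmt1KO replicate 2 was the highest and replicate 1 the lowest of the 4 samples in 3 of the 9 members, against 20.3% of all genes, and Mertk, Gas6 and Pros1 had the 4 samples in the same order, as did 14.4% of all genes. The gap was larger than that of 89.3% of all genes for Gas6, 84.7% for Pros1 and 79.4% for Mertk, while the Dnmt1fl/fl replicates were 0.33, 0.13 and 0.27 apart on the log2 scale. The libraries also differed by transcript length, with a median log2 difference of Dnmt1KO replicate 1 minus replicate 2 of 0.36 in the shortest tercile of genes and -0.38 in the longest. After a correction for length the differences of replicate 1 minus replicate 2 were -1.42 for Gas6, -1.05 for Pros1 and -0.73 for Mertk, against -1.36, -1.12 and -0.95 before it. The part of the neutrophil, fibroblast, B cell and resident macrophage markers given above in this gap was not tested.

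**Figure D2:**
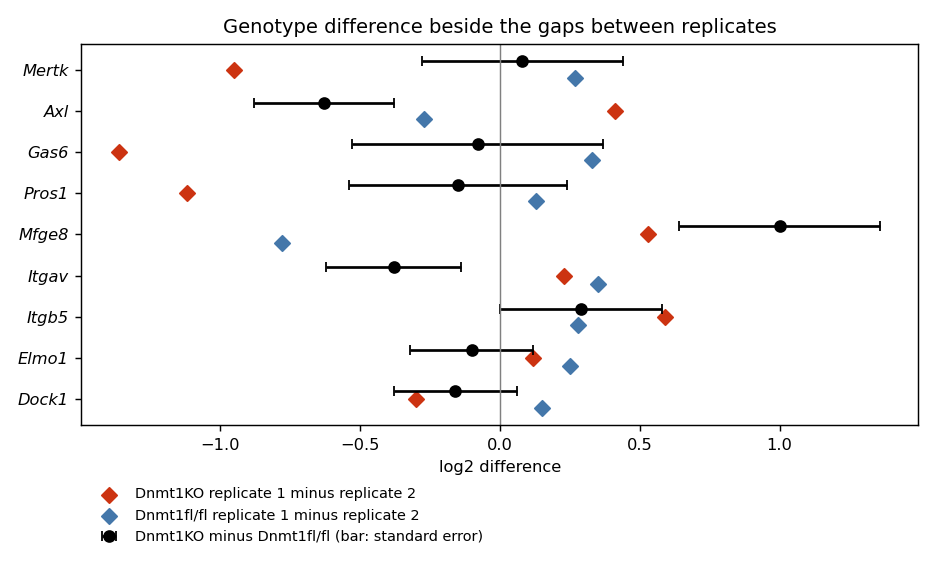
Log2 difference between the genotypes (black, bars show the standard error from edgeR) beside the log2 gap between the Dnmt1KO replicates (red) and between the Dnmt1fl/fl replicates (blue) for the 9 members tested. For Gas6, Pros1 and Mertk the red points lie at -1.36, -1.12 and -0.95 while the black points lie within 0.15 of 0.

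The genotype difference depended on which Dnmt1KO sample was kept. Without Dnmt1KO replicate 1 the log2 fold changes of Mertk, Gas6 and Pros1 were 0.48, 0.44 and 0.30, and without Dnmt1KO replicate 2 they were -0.47, -0.92 and -0.82. In the latter fit, which rests on a single Dnmt1KO sample, Gas6 and Pros1 had an adjusted p of 0.0331 and 0.0387 from edgeR, and 1061 genes in all were under 0.05. The balance of receptors and of ligands within a library does not depend on the scaling between libraries. Per kilobase of transcript, the ratio of Mertk to Axl was 1.91 and 1.31 in Dnmt1fl/fl, 1.54 in Dnmt1KO replicate 1 and 3.95 in Dnmt1KO replicate 2, and the genotypes overlapped. The ratio of Pros1 to Gas6 was 2.69 and 3.09 in Dnmt1fl/fl and 3.06 and 2.60 in Dnmt1KO, so it stayed between 2.60 and 3.09 in libraries whose Gas6 level differed up to 2.57-fold.

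Dnmt1 maintains methylation at CpG dinucleotides, and the stretches before the start sites of the TAM genes are shown because Mertk, Gas6 and Pros1 ordered the samples alike and Axl did not. They are the 250 bases before the RefSeq start site on GRCm38.p6, written 5′ to 3′ along the gene's strand, with each CpG (the letters CG) in capitals. No methylation was measured in these libraries.
Mertk (chr2:128698665-128698914, plus strand): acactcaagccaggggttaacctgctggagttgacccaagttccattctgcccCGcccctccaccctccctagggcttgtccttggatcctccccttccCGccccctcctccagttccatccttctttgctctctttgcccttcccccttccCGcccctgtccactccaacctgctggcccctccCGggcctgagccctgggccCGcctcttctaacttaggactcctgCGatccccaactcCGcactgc
Gas6 (chr8:13494536-13494785, minus strand): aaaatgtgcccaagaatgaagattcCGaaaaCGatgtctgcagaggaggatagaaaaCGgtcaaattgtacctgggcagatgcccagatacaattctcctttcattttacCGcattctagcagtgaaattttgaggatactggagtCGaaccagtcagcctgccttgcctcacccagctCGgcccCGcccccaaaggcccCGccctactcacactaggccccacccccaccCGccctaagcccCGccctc
Pros1 (chr16:62854057-62854306, plus strand): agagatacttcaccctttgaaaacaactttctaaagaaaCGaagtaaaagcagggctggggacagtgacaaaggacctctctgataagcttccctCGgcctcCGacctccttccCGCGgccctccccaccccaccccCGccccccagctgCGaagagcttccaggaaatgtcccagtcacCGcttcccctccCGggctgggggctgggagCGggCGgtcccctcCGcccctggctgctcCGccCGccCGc
Axl (chr7:25788734-25788983, minus strand): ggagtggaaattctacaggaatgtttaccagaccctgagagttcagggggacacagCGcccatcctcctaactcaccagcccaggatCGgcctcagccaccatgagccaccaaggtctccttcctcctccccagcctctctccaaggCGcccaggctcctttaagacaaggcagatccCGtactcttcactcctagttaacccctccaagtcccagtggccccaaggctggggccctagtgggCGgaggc

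Axl held 5 CpGs, Mertk 7, Gas6 10 and Pros1 15 in this stretch, where the median was 15 over the 13665 promoters of genes in the table and 6 over all 32851 promoters in the reference, of which 92.1% held at least 1 CpG. The ratio of observed to expected CpG was 0.23 for Axl, 0.35 for Mertk, 0.57 for Gas6 and 0.61 for Pros1.

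On the integrin arm, Mfge8 was the member with the largest difference. This secreted bridge between phosphatidylserine and alpha V integrins was at 131 and 224 CPM in Dnmt1fl/fl and at 421 and 290 CPM in Dnmt1KO replicates 1 and 2. Both Dnmt1KO samples were above both controls, while the controls themselves were 0.78 apart on the log2 scale, a gap larger than that of 91.1% of all genes. The means were 177 ± 66.4 (SD, n = 2) and 356 ± 92.1 CPM (SD, n = 2), a log2 fold change of 1.00 (SE 0.36, unadjusted p = 0.0326, adjusted p = 1.00, edgeR). The log2 fold change was 0.66 without Dnmt1fl/fl replicate 1, 1.45 without Dnmt1fl/fl replicate 2, 0.71 without Dnmt1KO replicate 1 and 1.24 without Dnmt1KO replicate 2, and its unadjusted p was above 0.05 only in the first of these. Without Dnmt1KO replicate 2 the adjusted p was 0.0250 from edgeR, in a fit with a single Dnmt1KO sample, whose spread is taken from the controls, where 1061 of 12754 genes were under 0.05 after adjustment and 27.6% before it. Fibroblasts also make Mfge8. Fibroblast marker sums were 46.1 and 67.4 CPM in Dnmt1fl/fl and 133 and 30.8 CPM in Dnmt1KO replicates 1 and 2. Mesothelial marker sums were 5.94 and 6.98 CPM in Dnmt1fl/fl and 10.9 and 4.32 CPM in Dnmt1KO replicates 1 and 2. The part of these cells in the Mfge8 difference was not tested.

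The integrin chains lay on opposite sides of the comparison. Itgav, which pairs with several beta chains, was at 101 and 79.4 CPM in Dnmt1fl/fl and at 74.8 and 63.6 CPM in Dnmt1KO. Both Dnmt1KO samples were below both controls, with a log2 fold change of -0.38 (SE 0.24, adjusted p = 1.00, edgeR), which was -0.20 without Dnmt1fl/fl replicate 1 and -0.54 without Dnmt1fl/fl replicate 2. Itgb5, the beta chain that completes the receptor for Mfge8, was at 266 and 219 CPM in Dnmt1fl/fl and at 355 and 236 CPM in Dnmt1KO, and Dnmt1KO replicate 2 lay between the controls. Its log2 fold change was 0.29 (SE 0.29, adjusted p = 1.00, edgeR) and -0.04 without Dnmt1KO replicate 1. With the correction for transcript length, the log2 fold change of Itgav, the longest member transcript at 7.05 kb, was -0.19 and its genotypes overlapped.

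Within each library the ratio of Itgb5 to Itgav per kilobase was 5.66 and 5.94 in Dnmt1fl/fl and 10.2 and 7.99 in Dnmt1KO. The Dnmt1KO ratios were both above the controls, by 0.64 on the log2 scale, with SDs of 0.05 in Dnmt1fl/fl and 0.25 in Dnmt1KO (n = 2 each). The exact two-sided permutation test gave p = 0.333, the smallest this design allows, and 7 such ratios between genes were computed. None of these ratios was corrected for the trend with transcript length between libraries. With that correction the log2 fold changes were -0.19 for Itgav and 0.33 for Itgb5. The ratio of Mfge8 to Gas6 was 3.81 and 8.26 in Dnmt1fl/fl and 25.9 and 6.96 in Dnmt1KO, so its genotypes overlapped (exact two-sided permutation p = 0.667). The exons of Itgav share 634 bases, 5.9% of their total, with a transcript on the opposite strand, Gm13684, and whether the counting used strand is not given in the sources used here. The other beta chain of the vitronectin receptor, Itgb3, was low, at 6.24 and 4.82 CPM in Dnmt1fl/fl and 5.71 and 7.63 CPM in Dnmt1KO, so per kilobase Itgb5 exceeded it 54.6- to 110-fold across the 4 libraries.

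The same 250 bases are shown for Mfge8 and Itgav, whose genotypes did not overlap in opposite directions, again with each CpG in capitals.
Mfge8 (chr7:79149061-79149310, minus strand): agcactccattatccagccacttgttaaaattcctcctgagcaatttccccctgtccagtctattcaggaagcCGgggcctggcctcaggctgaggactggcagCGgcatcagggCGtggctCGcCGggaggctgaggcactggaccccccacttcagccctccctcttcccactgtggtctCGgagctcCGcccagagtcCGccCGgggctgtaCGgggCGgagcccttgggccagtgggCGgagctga
Itgav (chr2:83724147-83724396, plus strand): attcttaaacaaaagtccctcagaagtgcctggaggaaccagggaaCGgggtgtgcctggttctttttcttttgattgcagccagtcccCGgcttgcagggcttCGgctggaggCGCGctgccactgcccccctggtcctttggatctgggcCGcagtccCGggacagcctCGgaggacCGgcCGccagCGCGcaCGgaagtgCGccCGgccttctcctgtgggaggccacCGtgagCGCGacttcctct

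Mfge8 held 12 CpGs in this stretch, and Itgav and Itgb5 held 18 each, where the median over promoters of genes in the table was 15.

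The engulfment adaptors Elmo1 and Dock1 varied least among samples of a genotype before correction for transcript length. Their pooled SDs were 0.14 and 0.17 on the log2 scale against 0.21 to 0.70 for the other members tested. With the correction, the log2 difference of Dnmt1KO replicate 1 minus replicate 2 was 0.48 for Elmo1 and 0.18 for Dock1, beside 0.44 for Mfge8. Elmo1, the scaffold of the exchange factor, was at 71.5 and 60.3 CPM in Dnmt1fl/fl and at 64.0 and 59.0 CPM in Dnmt1KO, a log2 fold change of -0.10 (SE 0.22, adjusted p = 1.00, edgeR). Dock1, its catalytic partner, was at 59.5 and 53.7 CPM in Dnmt1fl/fl and at 45.3 and 55.9 CPM in Dnmt1KO, a log2 fold change of -0.16 (SE 0.22, adjusted p = 1.00, edgeR). The genotypes overlapped for both genes. Corrected for transcript length, the log2 fold changes were 0.04 for Elmo1 and -0.02 for Dock1. Leaving out 1 sample gave Elmo1 values from -0.21 (without Dnmt1fl/fl replicate 2) to 0.03 (without Dnmt1fl/fl replicate 1), and Dock1 values from -0.32 (without Dnmt1KO replicate 2) to -0.02 (without Dnmt1KO replicate 1). Their leukocyte and ubiquitous relatives were more abundant in these cells. Per kilobase the level of Elmo1 was 0.188 to 0.255 of that of Elmo2, and the level of Dock1 was 0.101 to 0.120 of that of the haematopoietic Dock2, with overlapping genotypes for both ratios.

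Gulp1 was barely detected, with 2 and 6 counts in Dnmt1fl/fl and 2 and 1 counts in Dnmt1KO, and it did not pass the filter. A limit of 3 counts corresponded to 0.120 to 0.151 CPM. Summed over each genotype, 8 against 3 counts gave a ratio of Dnmt1KO to Dnmt1fl/fl of 0.394 with a 95% exact interval of 0.0673 to 1.64. The interval and the limit reflect counting error alone and leave out the spread between samples of a genotype. Reads from PCR duplicates are not separate molecules, and neither the interval nor the limit allows for them. A difference in Gulp1 was not detectable at this depth.

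Across members, levels per kilobase of the longest transcript kept nearly the same order in every library. Mfge8 and Itgb5 led, with 76.2 ± 28.5 and 73.9 ± 9.99 CPM per kilobase in Dnmt1fl/fl (SD, n = 2), and did not differ beyond their spread there. In Dnmt1KO they were at 153 ± 39.5 and 90.1 ± 25.5 CPM per kilobase (SD, n = 2). Mertk and Pros1 came next, at 39.1 ± 5.22 and 37.7 ± 2.46 in Dnmt1fl/fl and 41.4 ± 18.6 and 33.9 ± 17.8 in Dnmt1KO, again within each other's spread. Axl followed at 24.8 ± 3.29 and 16.1 ± 3.20 CPM per kilobase in Dnmt1fl/fl and Dnmt1KO. Gas6 at 13.2 ± 2.14, Itgav at 12.8 ± 2.16 and Elmo1 at 12.1 ± 1.45 CPM per kilobase could not be ranked in Dnmt1fl/fl, and Dock1 was below them at 8.31 ± 0.601. Gulp1 was last in every library. With the summed length of all annotated exons in place of the longest transcript, Itgb5 ranked first in all 4 libraries and Mfge8 lay at rank 2 or 4. Dock1 then lay above Elmo1 in both Dnmt1fl/fl libraries (rank 8 against 9) and in Dnmt1KO replicate 2 (rank 7 against 9).

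**Figure D3:**
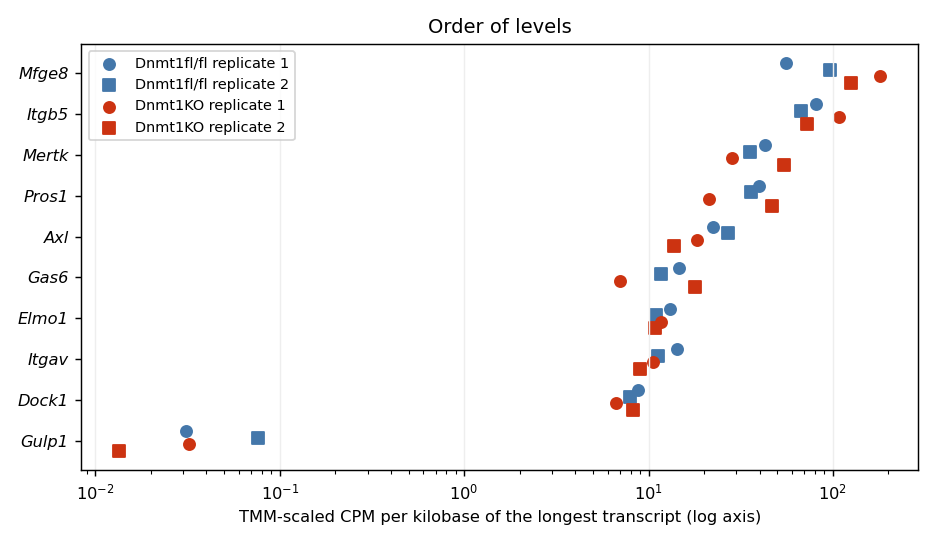
TMM-scaled CPM per kilobase of the longest annotated transcript (log axis) for all 10 members, with 1 point per sample, blue for Dnmt1fl/fl, red for Dnmt1KO, circles for replicate 1 and squares for replicate 2. Mfge8 and Itgb5 lie at the top, between 56.0 and 181 CPM per kilobase, and Gulp1 lies below 0.1 in every library.

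A wider list of 85 other efferocytosis genes was examined in the same fit, of which 80 were listed and 79 tested. None had an adjusted p under 0.05 or an unadjusted p under 0.05, and the lowest unadjusted p was 0.0624 (edgeR). The genotypes did not overlap in 4 genes higher and 8 genes lower in Dnmt1KO, or 15.2% of the 79, beside 16.7% of all genes. The median log2 fold change was -0.04. With the correction for transcript length, 7 were higher and 4 lower without overlap, 13.9% beside 18.7% of all genes, and 5 of the genes without overlap before it (Timd4, Marco, Ccz1, Abcg1 and Rxra) were still without overlap in the same direction.

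The lowest values in that list belonged to Timd4 and Thbs1. Timd4, a phosphatidylserine receptor of resident macrophages and one of their markers, was at 91.4 and 140 CPM in Dnmt1fl/fl and 67.6 and 78.8 CPM in Dnmt1KO, a log2 fold change of -0.66 (SE 0.29, adjusted p = 1.00, edgeR). Thbs1, a secreted bridge to Cd36 and alpha V integrins, was at 678 and 837 CPM in Dnmt1fl/fl and 620 and 355 CPM in Dnmt1KO, a log2 fold change of -0.64 (SE 0.34, adjusted p = 1.00, edgeR). For both genes the Dnmt1KO samples were below the controls, and corrected for length only Timd4 stayed so, with a log2 fold change of -0.67 against -0.45 for Thbs1. The highest values belonged to Rhog, the GTPase upstream of Elmo, at 0.51 (SE 0.34), and to Lgals3, a galectin that can bind Mertk, at 0.48 (SE 0.41). Their genotypes overlapped, as Dnmt1KO replicate 1 was at 317 CPM for Rhog and 5660 CPM for Lgals3 while replicate 2 was at 177 and 2680 CPM, near the controls at 158 and 190 CPM for Rhog and 3250 and 2720 CPM for Lgals3. Corrected for length, Rhog had both Dnmt1KO samples above the controls, at a log2 fold change of 0.38, while Lgals3 still overlapped, at 0.34.

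By role, 21 genes of corpse processing and response were tested, of which 4 were higher and 1 lower in Dnmt1KO without overlap, or 23.8% beside 16.7% of all genes (8.14% higher and 8.56% lower), the higher ones being the cholesterol exporters Abca1 and Abcg1, at log2 fold changes of 0.33 and 0.43, Ccz1 at 0.27 and the nuclear receptor Rxra at 0.05, and the lower one Cybb, the oxidase subunit, at -0.20. Among 15 genes of the engulfment machinery 0 were higher and 2 lower without overlap, Dock5 at -0.42 and Crk at -0.14. The 9 phosphatidylserine receptors tested had 1 such gene (Timd4), the 8 scavenger receptors 1 (Marco, at -0.54) and the 9 bridging molecules and opsonins 1 (Thbs1), all lower in Dnmt1KO. These were 11.1%, 12.5% and 11.1% of their lists, and the engulfment genes 13.3%, beside the 16.7% of all genes. Itgb1 (-0.17) among 5 integrin chains and the protease Adam17 (-0.12) of 2 shedding enzymes were also lower without overlap, while 4 inhibitory genes and 6 genes for finding apoptotic cells had 0 without overlap. Cd36, which also binds apoptotic cells, had overlapping genotypes and a log2 fold change of -0.30 (SE 0.35). Corrected for length, the values were 0.59 for Abca1, 0.60 for Abcg1, 0.16 for Rxra, -0.24 for Dock5, -0.06 for Crk, -0.02 for Adam17, -0.10 for Itgb1 and -0.11 for Cybb. After that correction the genotypes overlapped for Abca1, Dock5, Crk, Adam17, Itgb1 and Cybb, and still did not for Abcg1 and Rxra. Other genes overlapped before the correction and not after it. These were Itgb3, Rhog, Mon1b and Socs1, higher in Dnmt1KO, and Dock2 and Trio, lower in Dnmt1KO. No gene of these lists passed the adjusted threshold in edgeR.

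**Figure D4:**
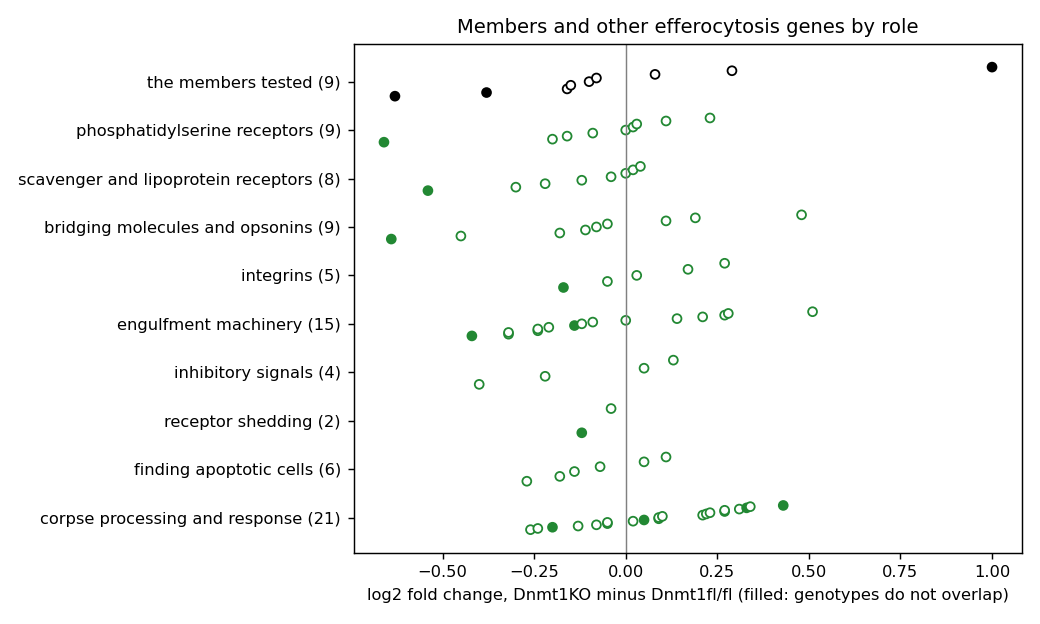
Log2 fold change (Dnmt1KO minus Dnmt1fl/fl, edgeR) of the 9 members tested (black) and of 79 other efferocytosis genes (green) by role, with the number of genes in parentheses, filled where the samples of the genotypes do not overlap. Mfge8 at 1.00 lies outside the range of -0.66 to 0.51 of the other genes.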

How the data were processed

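Reads were sequenced by the authors as 150-base pairs from 4 libraries. Per the labels, the authors aligned them to mm10 with HISAT2 2.0.5 and counted them per gene with featureCounts 1.5.0-p3. The deposited values are estimated counts, not normalized, of which 72.6% to 76.4% per sample are whole. Each gene listed has a value above 0 in every sample. A shorter table repeats 2749 rows and was not used.

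Rounded counts passed through filterByExpr and TMM (edgeR 4.0.16, R 4.3.3). The quasi-likelihood F-test was two-sided, and Benjamini-Hochberg adjustment covered all 12542 genes tested. Standard errors came from the F statistic. Alternatives included limma-voom (limma 3.58.1), DESeq2 1.42.0, other scalings and filters, a block by replicate number, a length correction (loess, span 0.5, longest GENCODE M21 transcript on GRCm38) and leaving out each sample. The fits were tested on simulated data. Totals of 20228071 to 24198943 counts per sample left Gulp1 alone among the members near its counting limit. The members and lists were chosen with earlier results of these data known. Genes named were the members, their partners, Dnmt1 and the pathway genes with the 2 highest and 2 lowest fold changes. Other pathway genes were named after their values were seen. All 10 members matched a RefSeq promoter by symbol.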

Additional observations from a re-analysis of the deposited data

How the results depend on the processing

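The alternatives were fixed apart from the crossed pairing and the scaling to macrophage genes other than Lyz2, which were chosen after seeing the data. In 109 of 117 comparisons of a member with an alternative that kept all 4 samples, the direction and the side of the adjusted threshold were as reported. The block by replicate number left 0 genes under an adjusted p of 0.05 (edgeR, 34 at an unadjusted p under 0.05), 1 member had an unadjusted p under 0.05, 3 members did not overlap (16.7% of all genes) and the median log2 fold change of the members was -0.17 (all genes -0.0080). The numbers were read as names of samples only, and the block changed no call on a member. Same-numbered samples had a correlation of -0.34 in their deviations over genes. With 2 samples a genotype, this value cannot show whether samples were paired. Crossing the pairs put 3 genes under an adjusted p of 0.05 and gave 2 members and 297 genes (2.37%) with an unadjusted p under 0.05. DESeq2 called 1 gene, which was no member. Total counts only, limma-voom, at least 10 counts in every sample and the scaling without Lyz2 each gave 2 members (Mfge8 and Axl) with an unadjusted p under 0.05, beside 35 to 40 of all genes. Other settings moved Axl the other way. Its unadjusted p in edgeR was 0.104 with the length correction (log2 fold change -0.53), 0.127 with the block and 0.129 with both.

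Scaling to the 9 macrophage markers was dominated by Lyz2, at 29500 and 28600 CPM in Dnmt1fl/fl and 11400 and 15700 CPM in Dnmt1KO, and it shifted the median over all genes to 0.82 on the log2 scale. Under it, 5 members had an unadjusted p under 0.05 (54.4% of all genes), 7 did not overlap (80.9% of all genes), and the members' median was 0.68. The log2 fold changes turned to 0.21 for Axl, 0.68 for Gas6, 0.62 for Pros1, 0.45 for Itgav, 0.73 for Elmo1 and 0.65 for Dock1, so that relative to the median of all genes every one of these 6 stayed lower in Dnmt1KO. Without Lyz2 the values were within 0.06 of those reported. The length correction turned Elmo1 to 0.04, or 0.02 with the block, and left 2 members without overlap (18.7% of all genes).

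Leaving out 1 sample leaves 1 in its genotype, whose spread is assumed from the other, and makes overlap rarer by construction. Over these 4 fits, 0 to 1061 genes had an adjusted p under 0.05, 0 to 4 members an unadjusted p under 0.05 (0.333% to 27.6% of all genes), 4 to 8 members did not overlap (40.1% to 82.8% of all genes) and the members' median ran from -0.32 to 0.03. Log2 fold changes ran from -0.92 to 0.44 for Gas6, -0.82 to 0.30 for Pros1, -0.47 to 0.48 for Mertk, -0.04 to 0.55 for Itgb5, -0.21 to 0.03 for Elmo1, 0.66 to 1.45 for Mfge8, -0.85 to -0.43 for Axl, -0.54 to -0.20 for Itgav and -0.32 to -0.02 for Dock1. The 1061 came without Dnmt1KO replicate 2, and the cause was not tested. Among members, depth limited only Gulp1.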
